A study of Drosophila melanogaster with 9 samples.

Results

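Open chromatin was compared between Drosophila melanogaster Kc167 cells depleted of M1BP and mock cells, using 6 of the 9 libraries of the series: 3 mock libraries and 3 M1BP knockdown libraries, each with its own list of accessible peaks. Kc167 is an established female cell line derived from embryos with properties of hemocytes, the blood cells of the fly. The assay was ATAC-seq, in which a transposase inserts sequencing adapters into DNA that is not wrapped in nucleosomes, so that a peak of fragments marks accessible DNA. M1BP knockdown cells (M1BPKD) had received 20 µg of double-stranded RNA against M1BP, mock cells had been transfected with no RNA, and both were collected after 5 days. Cells were grown in CCM3 medium. The remaining 3 libraries came from cells given 12 µg of double-stranded RNA against Cp190, and they are used here only to say whether a region was also open there. The study asked how M1BP and the insulator protein CP190 act together on transcription and chromatin near the borders of topological domains. The study describes 3 biological replicates for ATAC-seq, but the labels do not say whether these were separate cultures. Differences are therefore set against the spread between libraries, which may be in part technical.

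M1BP is a zinc finger protein that binds Motif 1, an element of the core promoter found at many genes used by every cell, including genes for parts of the ribosome. Promoters with Motif 1 usually lack a TATA box, and the RNA polymerase at them pauses close to the start. Other promoters are opened by other factors: DREF binds the DNA replication-related element (DRE), and GAGA factor, the product of Trl, binds GA repeats. AP-1, a dimer of Jun and Fos proteins that responds to the JNK pathway, opens enhancers after stress and wounding.

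The bases read from the reference genome at changed sites show both ends of the comparison. Coordinates are those of dm6, and the 60 bases upstream of each start and the 81 bases around each AP-1 word were read from the RefSeq sequence of that build, on the gene's strand for starts and on the plus strand for the others. The first 4 sequences lie upstream of genes whose start peak was present in every mock library and absent from every knockdown library, and the fifth, RpLP1, kept its peak in all 6. Capitals mark the core of Motif 1, searched as GGTCACACT on both strands.
Cyt-c-p, chr2L:16719872-16719931, plus strand: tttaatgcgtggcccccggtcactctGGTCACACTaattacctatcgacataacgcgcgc
Mettl3, chr3R:24032097-24032156, plus strand: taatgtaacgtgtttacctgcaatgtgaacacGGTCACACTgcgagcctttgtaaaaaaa
Adsl, chr3R:17021121-17021180, minus strand: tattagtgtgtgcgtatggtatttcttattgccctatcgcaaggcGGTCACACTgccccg
abo, chr2L:10975294-10975353, minus strand: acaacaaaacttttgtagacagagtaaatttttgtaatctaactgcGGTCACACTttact
RpLP1, chr2L:419892-419951, plus strand: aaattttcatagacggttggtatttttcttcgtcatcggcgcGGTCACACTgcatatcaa

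The next sequences come from regions that had a peak in every knockdown library and in no mock library, and they are shown because the capitalised word was more frequent there than in lost or retained regions. Capitals mark the AP-1 word, searched as TGANTCA, where N is any base.
bab2 intron, chr3L:1151520-1151600: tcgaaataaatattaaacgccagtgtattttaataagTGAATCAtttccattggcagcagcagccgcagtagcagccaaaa
Nrg intron, chrX:8533291-8533371: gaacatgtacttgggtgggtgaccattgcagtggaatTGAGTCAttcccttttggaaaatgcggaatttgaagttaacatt
Tm1 locus, chr3R:15286820-15286900: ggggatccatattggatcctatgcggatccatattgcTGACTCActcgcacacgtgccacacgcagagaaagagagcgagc
capu intron, chr2L:3896699-3896779: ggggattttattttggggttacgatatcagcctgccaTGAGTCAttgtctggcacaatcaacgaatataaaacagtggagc
plum locus, chr3R:26504652-26504732: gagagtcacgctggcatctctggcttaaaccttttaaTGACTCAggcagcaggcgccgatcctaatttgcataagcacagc

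Peaks of the 6 libraries were merged where they overlapped, which gave 23787 regions, and each region was classed by the libraries that had a peak in it. A region was called lost when the 3 mock libraries had a peak and no knockdown library did (2170 regions, 9.12%) and gained in the opposite case (814 regions, 3.42%). A region with a peak in all 6 libraries was called retained (9774 regions). The lists held 17178 to 18959 peaks in mock and 13464 to 15232 in the knockdown. The level of background fragments recovered from the lists was 39.7 to 41.7 fragments per base in mock and 29.5 to 35.2 in the knockdown, and the median fold enrichment of a peak was 2.62 to 2.65 against 3.12 to 3.85. When every list was thinned to the lowest background level, 2080 regions were lost and 820 gained. With peaks of −log10 q of at least 20 alone, 846 regions were lost and 838 gained, and with lists of equal length, each limited to its strongest peaks, 919 were lost and 1047 gained. Under both settings gained regions were close to or above lost regions in number. The part of the difference in enrichment in the results was not tested. With 3 libraries a group, the smallest p an exact two-sided permutation test can give is 0.1, so no single value could pass 0.05. Bulk libraries cannot tell apart fewer cells with an open site and less opening of the site in every cell. Mock cells received no double-stranded RNA, so an effect of the RNA itself and of M1BP depletion cannot be told apart within this comparison.

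The strength of a peak is given as its percentile: the position, from 0 to 100, of its −log10 q-value among all peaks of the same library. M1BP itself, on 3R from 8729790 to 8731698, kept a start peak in every library. Its percentile was 77.6, 85.3 and 89.1 in mock replicates 1 to 3 and 61.4, 64.5 and 67.5 in the knockdown replicates. The cover of the open region at its start was 1379, 1384 and 1399 bp in mock and 537, 873 and 571 bp in the knockdown. Both measures were lower in every knockdown library than in every mock library. RNA interference acts on the transcript, so the peak does not measure how far M1BP was depleted. Of 11 hemocyte markers, 6 had a start peak in all 6 libraries (srp, Hml, Pxn, eater, crq and Pvr), and NimC1, He, Sr-CI and Col4a1 had none in any. Of 14 markers of neurons, muscle, germ line, fat body, gut and eye, 2 (elav and Mef2) had one in all 6 libraries and 8 had none in any.

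In percentage points, the largest change in cover around gene starts was on the transcribed side. Over the 13968 protein-coding genes, peaks covered 22.8%, 23.1% and 23.5% of the bases from 150 to 1000 bp downstream of the start in the mock libraries and 14.4%, 16.9% and 15.5% in the knockdown libraries. The mean was 23.1% ± 0.369 in mock and 15.6% ± 1.23 in the knockdown (SD, n = 3), and the groups did not overlap (exact permutation test, p = 0.1, two-sided). Within 150 bp of the start the cover was 33.9%, 34.2% and 34.0% in mock and 32.9%, 33.9% and 32.3% in the knockdown, and there the groups overlapped (exact permutation p = 0.2). Cover from 500 to 150 bp upstream was 19.6% ± 0.198 in mock and 19.0% ± 0.694 in the knockdown, again with overlap. Farther upstream, from 1000 to 500 bp, it was 18.7% ± 0.303 in mock and 13.4% ± 0.973 in the knockdown, without overlap.

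**Figure D1:**
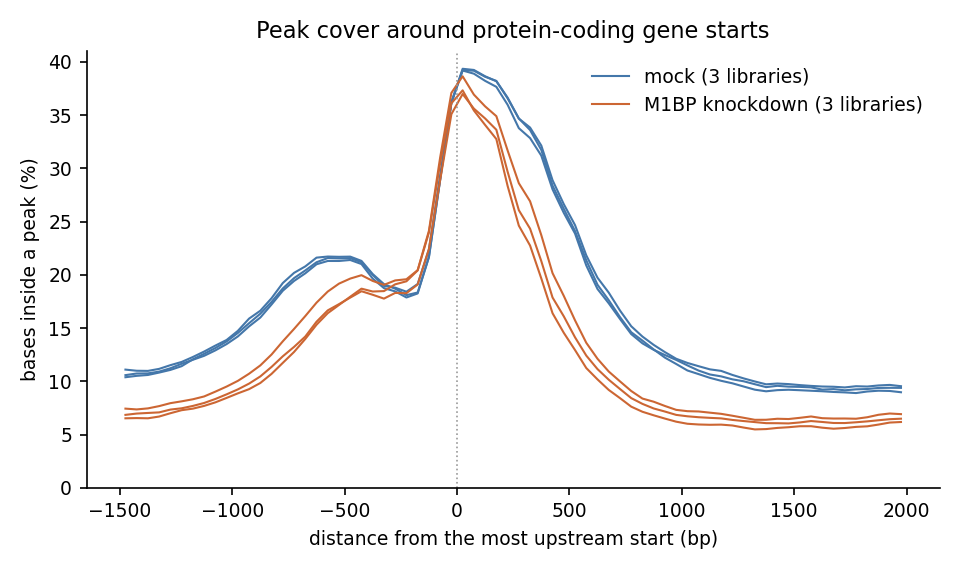
Share of bases inside a peak over all protein-coding genes (y axis, %) against the distance from the most upstream start in bp (x axis), 1 line per library, mock and M1BP knockdown. The lines run together close to the start and separate downstream and farther upstream. Mean cover from 150 to 500 bp downstream was 32.7% in mock and 24.4% in the knockdown.

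The loss of cover was one-sided within regions that stayed open. In the 4415 retained regions whose gene starts all pointed the same way, peaks extended a mean of 444, 450 and 453 bp past the last start in mock and 336, 368 and 351 bp in the knockdown. The mean fell by 97.3 bp, from 449 ± 4.51 to 352 ± 15.7 bp (exact permutation p = 0.1). On the other side, peaks extended 174, 175 and 174 bp upstream of the first start in mock and 191, 188 and 183 bp in the knockdown. The upstream extension was therefore 13.1 bp longer in the knockdown, with every knockdown library above every mock library (exact permutation p = 0.1). Neither direction changed without any 1 library, with the threshold of −log10 q at 20, with lists of equal length or after thinning.

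The length of open regions followed the same pattern. The median covered length of the retained regions was 535, 531 and 538 bp in mock and 457, 489 and 472 bp in the knockdown, so that it fell by 62 bp (exact permutation p = 0.1). A retained region was called narrowed or widened when every knockdown library covered fewer, or more, of its bases than every mock library. By this rule 3250 narrowed (33.3%) and 2006 widened (20.5%). Narrowing was more frequent in long regions: 9.43% of the regions under 300 bp in mock narrowed, 40.5% of those of 500 to 1000 bp, and 72 of the 87 regions over 2000 bp (82.8%). Widening went the other way, from 35.0% of the shortest class to 4.60% of the longest. The classes were cut by the same mock lengths that the rule compares with the knockdown. The trends with length are therefore not independent of the rule, and no conclusion is drawn from them. The median GC content of narrowed regions was 48% and that of widened regions 47%.

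The regions that narrowed most included those of gammaCOP, which encodes a subunit of the COPI vesicle coat, and Prp16, which encodes a splicing helicase. The gammaCOP region (3R, 31571866 to 31574508) was covered over 2637, 2337 and 2284 bp in mock and 650, 643 and 817 bp in the knockdown. The Prp16 region (X, 14201313 to 14203607) was covered over 2211, 1922 and 2248 bp in mock and 389, 803 and 363 bp in the knockdown. Both regions lie at a start and had a peak in all 6 libraries. Others that narrowed strongly were in coding exons of Prosap and pico and between genes on 3L, 106869 bp from the nearest start, that of CR14578.

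Among the regions that widened most, that at wat was covered over 323, 267 and 326 bp in mock and 1699, 1666 and 1694 bp in the knockdown. The gene wat (waterproof) encodes a fatty acyl-CoA reductase needed to seal the airways. Zip99C, which encodes a metal ion transporter of the ZIP family, had a region covered over 854, 833 and 800 bp in mock and 1687, 1951 and 1766 bp in the knockdown. At Src64B, a Src family kinase gene, cover went from 752, 782 and 761 bp to 1773, 1573 and 1746 bp. The remaining 3 lay near lncRNA:CR45628, lncRNA:CR41352 and MESK2. Each of these 6 had less cover in every mock library than in any knockdown library, as the rule required.

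Splitting was rare. The number of peaks per retained region averaged 1.08, 1.06 and 1.08 in mock and 1.04, 1.06 and 1.06 in the knockdown, a difference the exact permutation test did not separate (p = 0.2). A region split when every knockdown library had more peaks in it than every mock library (45 regions, 0.46%), and fused in the opposite case (128 regions, 1.31%). TfIIEalpha, which encodes a subunit of a general transcription factor of RNA polymerase II, had 1 peak in each mock library and 2, 3 and 2 in the knockdown, while cover went from 1850, 1839 and 1856 bp to 509, 742 and 821 bp. RpLP0, a ribosomal stalk protein gene, had 1 peak in each mock library and 2 in each knockdown library, with more cover in the knockdown (2410, 2609 and 2446 bp against 2265, 2228 and 2276 bp). CG40191 and mdlc also split at starts, and enc and RhoGAP100F split within coding exons. In enc and RhoGAP100F the mean number of peaks was lower in the knockdown when only peaks of −log10 q of at least 20 were kept.

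The lost and gained regions lay in different parts of genes. Of 2167 lost regions on the chromosomes, 1201 (55.4%) had their summit in a coding exon away from any start, against 21 of 800 gained regions (2.63%) and 738 of 9762 retained regions (7.56%). Gained regions lay in introns in 388 cases (48.5%) and between genes in 189 (23.6%), where the shares of lost regions were 16.8% and 7.89%. Starts held 16.8% of lost, 18% of gained and 58.2% of retained regions. In 3′ UTRs lay 25 lost regions (1.15%) and 42 gained ones (5.25%). The host gene's start peak was present in all 6 libraries for 1156 of 1633 lost regions in genes (70.8%) and 333 of 467 gained ones (71.3%). The share over all regions in genes was not measured, so these values are not particular to changed regions. Base composition differed between the classes. The median GC content was 55.5% in lost, 43% in gained and 47.5% in retained regions, and within introns it was 50%, 43% and 46.5%. Within coding exons it was 58%, 52.5% and 58.5%, so lost and retained regions were close there. The part of base composition in the result was not tested.

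**Figure D2:**
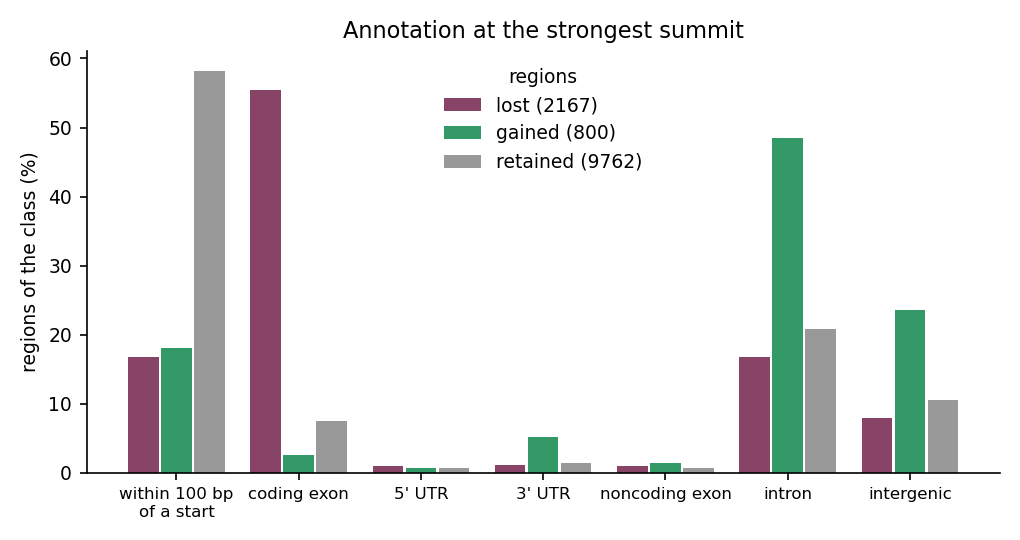
Percent of lost, gained and retained regions (bars) by the place of the summit: at a gene start, in a coding exon, UTR, other exon, intron or between genes, for the regions on chromosomes (numbers in parentheses). Coding exons hold 55.4% of lost regions and 2.63% of gained ones, and introns hold 48.5% of gained regions.

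Lost regions in coding exons were mostly weak peaks in mock cells. Their median percentile there was 22.3, that of lost regions at starts was 42.7, and that of retained regions at starts was 78.0. Retained regions in coding exons also stood lower in the knockdown, at a median percentile of 20.0 against 43.5 in mock, while retained intronic regions stood at 62.3 against 63.9. Among lost regions in any exon, UTRs included, the strongest in mock was in the 3′ UTR of drd (X, 15136970 to 15137167), at 88.3, 88.3 and 91.1. It was followed by 5′ UTR regions of CG44838, MFS17 and bun and coding exon regions of Jarid2 and CG13784. Jarid2, which encodes a subunit of a Polycomb repressive complex, had a region at percentiles 71.6, 70.5 and 68.1 in mock and no peak in any knockdown library. The gene bun, a TSC-22 family transcription factor, also held a run of 4 neighbouring lost regions over 4.22 kb.

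Lost intronic regions included sites in genes of transcription factors. The strongest lay in Trl (3L, 14759997 to 14760226) at 81.0, 76.0 and 80.3 in mock, 904 bp from a start. In contrast, the start peak of Trl itself was at 53.7, 46.9 and 58.0 in mock and 69.3, 62.0 and 69.3 in the knockdown, higher in every knockdown library. The next were in introns of pdm3, a POU domain factor, and chinmo, a BTB zinc finger factor of temporal identity in neurons. The region in chinmo was at 77.3, 67.3 and 74.7 in mock. Between genes, the lost region near fz, which encodes a Wnt receptor, was at 79.6, 68.6 and 68.9.

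Gained regions had a median percentile of 39.7 in the knockdown, and that of lost regions in mock was 25.9. The gained region in an intron of Nrg (X, 8533089 to 8533538), the gene of the cell adhesion protein Neuroglian, was at 79.5, 86.6 and 85.3 in the knockdown. In the same class was a region of 2085 bp in Myo81F at 88.0, 84.8 and 88.0. At starts, gained regions covered C3G, an exchange factor gene for Rap, at 72.8, 80.2 and 74.3, and several small RNA genes. Those at tRNA:His-GTG-1-4 and snRNA:U2:38ABb, a U2 spliceosomal RNA gene, were at 79.6, 85.1 and 84.3 and at 80.3, 80.3 and 87.3. In 3′ UTRs, a region of Myc, the growth-promoting transcription factor gene, gained a peak at 64.4, 65.9 and 65.4, and the same region was open in 3 Cp190 knockdown libraries. Another lay in the 3′ UTR of ChAT, which encodes the enzyme that makes acetylcholine, at 66.6, 67.4 and 63.5.

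The Cp190 knockdown libraries mostly had the mock state at these regions. Of the lost regions, 77.3% had a peak in all 3 Cp190 knockdown libraries and 5.26% in none. Of the gained regions, 5.13% had a peak in all 3 and 73.8% in none. For retained regions the share in all 3 was 92.6%. These counts use the same mock libraries and were not tested. The Cp190 knockdown lists held 18005 to 18625 peaks at a background of 39.1 to 46.4 fragments per base, closer to mock than to the M1BP knockdown. The part of this likeness in the counts was not tested either.

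Word counts within 200 bp around the summits differed between the classes. The AP-1 word TGANTCA was present in 135 of 800 gained regions (16.9%), in 47 of 2167 lost regions (2.17%), in 6.33% of retained regions and in 5.57% of all regions. Within introns alone it was in 86 of 388 gained regions (22.2%), 3.86% of lost and 12.3% of retained ones. The GATA word AGATAAG was in 5.5% of gained, 1.25% of lost and 2.65% of all regions, and the STAT word TTCNNNGAA in 7.75%, 3.28% and 4.54%. The GAGA word GAGAGAG was in 8.25% of gained, 3.51% of lost and 11.6% of retained regions. The DRE word TATCGATA was in 1%, 0.738% and 5.02%. All words were searched on both strands, a match is not evidence of binding, and the classes differ in base composition as given above.

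**Figure D3:**
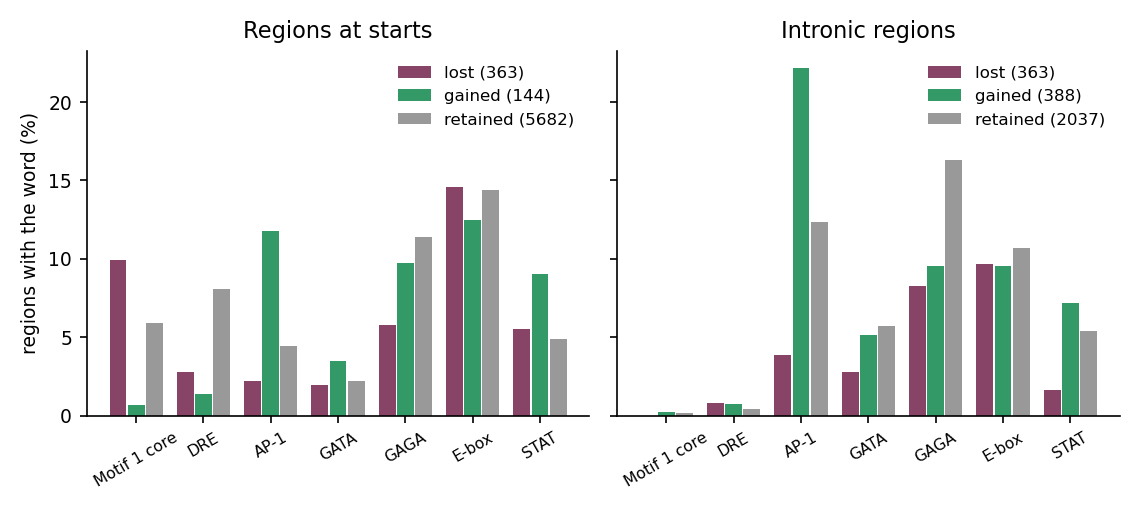
Percent of regions with each searched word within the 200 bp around the summit (bars) in lost, gained and retained regions, for regions at starts (left) and in introns (right), with the number of regions in parentheses. In introns the AP-1 word stands at 22.2% of gained, 3.86% of lost and 12.3% of retained regions.

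Gene starts were scored by a peak within 100 bp. A start peak was present for 41.9%, 41.6% and 41.9% of the 17796 genes in mock and 38.9%, 40.4% and 39.3% in the knockdown (exact permutation p = 0.1). The start peak was lost, present in 3 mock and no knockdown libraries, at 346 genes (1.94%), and gained at 151 genes (0.849%). Of the 346, 265 lost the whole region and 46 lost only the part of a retained region at the start. For 194 of them some knockdown library still had a peak within 1000 bp. Of the 151 gained genes, 103 gained the whole region, and for 94 a mock library had a peak within 1000 bp. The median percentile of lost start peaks was 49.0, against 79.6 in mock for the 6175 genes open in all 6 libraries.

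Cyt-c-p, the gene of cytochrome c of the respiratory chain, lost one of the strongest start peaks. It stood at 88.0, 87.2 and 88.9 in mock, covering 671, 674 and 680 bp, and no knockdown library had a peak there. Its Motif 1 core is the first sequence printed above. The 4.71 kb around the gene held 4 regions, of which 3 were lost and 1 was retained. The retained one, in an intron (2L, 16720954 to 16721523), was stronger in the knockdown: 91.2, 86.0 and 90.8 in mock against 97.2, 98.7 and 98.5. A second metabolic gene, Acadvl, encoding an acyl-CoA dehydrogenase of fatty acid oxidation, lost a start region at 87.6, 87.6 and 87.0. CG31365 and CG34355 lost start regions of similar strength, at 87.7, 85.2 and 86.1 and at 86.5, 81.4 and 85.6.

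Of all genes open in mock 4.91% lost the start peak, and lists are read against that share. In the list of RNA polymerase subunits, 4 of the 22 genes open in mock lost it (18.2%). These were Polr2K and the polymerase III genes Polr3B, Polr3E and Polr3K. Their percentiles in mock were moderate, 52.9, 56.7 and 52.2 for Polr2K and 45.7, 40.7 and 53.9 for Polr3E. In DNA replication 2 of 30 open genes lost it (6.67%). RnrL, the large subunit of ribonucleotide reductase, was at 71.4, 70.7 and 67.6 in mock, and PCNA, the sliding clamp, at 35.6, 36.8 and 25.0. IntS2 of the Integrator complex was at 60.8, 61.7 and 56.6, and LSm1, part of a complex that promotes mRNA decapping, at 44.3, 39.98 and 55.8. None of these had a peak within 100 bp of the start in a knockdown library. Within 1000 bp, PCNA, IntS2, LSm1 and Polr3K had one in all 6 libraries, and LSm1 lay in a retained region.

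Signalling genes in the same class were Fadd, aos and lgs, each the single loss in its list. These were 1 of 18 open Toll and Imd genes (5.56%), 1 of 15 EGFR and Ras genes (6.67%) and 1 of 14 Wnt genes (7.14%). Fadd, an adaptor of the Imd immune pathway, was at 82.9, 81.0 and 80.3 in mock, but its region was retained, and within 1000 bp of the start the knockdown libraries had a peak at 50.8, 66.2 and 61.1. Argos, the secreted inhibitor of the EGF receptor encoded by aos, had a start peak at 89.1, 78.1 and 80.8. The gene lgs encodes Legless, a partner of β-catenin in Wnt signalling, and was at 74.3, 70.1 and 77.6. Single genes of other lists were mle (1 of 7 open dosage compensation genes) and del (1 of 27 open small RNA pathway genes, 3.7%). The gene mle, the helicase of the dosage compensation complex, was at 52.0, 59.7 and 60.7, and del, a factor of piRNA clusters, at 77.6, 81.4 and 77.9. Both had a peak within 1000 bp of the start in all 6 libraries.

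Gained start peaks included hid and rpr, which encode antagonists of the inhibitor of apoptosis. In the apoptosis list 2 of 10 genes gained one, against 0.849% of all genes. Of its 5 genes open in all 6 libraries, 4 had a lower percentile in every knockdown library than in every mock library. The opposite held for 0 of them. Over all genes open in all 6 libraries these shares were 55.3% and 13%. Ranked only among the start peaks of such genes, 3 of the 5 fell and 1 rose, against 30.3% and 30.1%. At rpr the whole region appeared, at 40.02, 38.8 and 48.7 in the knockdown. At hid the mock libraries already had a peak 5′ of the gene, covering 394, 369 and 368 bp, and in the knockdown it covered 817, 812 and 805 bp and reached the start. The stretch from hid to skl, 272 kb of 3L that also holds grim, had 7 gained, 7 retained and 0 lost regions. The strongest of the gained ones, 2860 bp from the rpr start, was at 81.3, 80.6 and 82.97, and it was also open in 2 Cp190 knockdown libraries. The remaining 6 gained regions had no peak in any Cp190 knockdown library. The starts of grim and skl had no peak in any of the 6 libraries.

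Other gained starts were Orc6, a subunit of the origin recognition complex, at 37.6, 39.6 and 40.3, and qin, a piRNA pathway gene, at 49.2, 60.8 and 47.7. Of the 75 mitochondrial ribosomal protein genes 5 gained a start peak, against 0.849% of all genes, and of the 50 open in mock 1, mRpS7, lost it (2%, against 4.91%). Those that gained one were mRpL2, mRpL27, mRpL28, mRpS6 and tko. At mRpL2, mRpL28 and mRpS6 every mock library already had a peak within 1000 bp. The strongest of the 5 was tko at 62.9, 75.7 and 69.8. Drsl1 and Drsl6, neighbouring genes of the Drosomycin family of antifungal peptides, gained start peaks at 54.9, 50.6 and 51.4 and at 54.9, 32.0 and 51.4. Orc6, Drsl1 and Drsl6 had a peak within 1000 bp of the start in all 6 libraries. For Drsl1 and Drsl6 these values came in part from a shared peak.

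The strength of start peaks present in all 6 libraries was compared in 2 ways. By percentile within the whole list, 3412 of 6175 genes fell (55.3%), meaning that every knockdown library was below every mock library, and 804 rose (13%). The median percentile moved by −6.11, which shifts every list below. Ranked only among the start peaks of these 6175 genes, again from 0 to 100, 1870 fell (30.3%) and 1860 rose (30.1%), so the gene lists are described by this rank.

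The start peaks that fell most included those of genes of membrane traffic and the cytoskeleton. Vps16B, a subunit of a complex for endosome fusion, was at percentiles 85.9, 82.8 and 82.5 in mock and 10.1, 14.3 and 21.3 in the knockdown, while the peak width went from 1035, 1272 and 1264 bp to 361, 386 and 345 bp. SH3PX1, a sorting nexin gene, was at 79.0, 77.6 and 79.2 in mock and 8.31, 17.4 and 7.43 in the knockdown. With a window of 1000 bp SH3PX1 was at 87.8, 84.9 and 89.9 in mock and 80.1, 88.1 and 84.1 in the knockdown, where the groups overlapped. CG13484 and Frl, a formin gene, shared one peak at 92.4, 91.1 and 91.1 in mock and 23.9, 26.2 and 20.2 in the knockdown. Vta1, a cofactor of the ESCRT machinery, and CG7970 shared another, at 94.1, 94.1 and 91.8 in mock and 19.6, 33.8 and 30.6 in the knockdown. Within 100 bp of the start the fall was 65.3 percentile points or more in each case and the peak was kept.

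Among the start peaks that rose most, TP53INP, an autophagy gene, was at 42.3, 37.7 and 41.0 in mock and 94.4, 94.2 and 94.0 in the knockdown. The knockdown value came from a second of its starts (3L, 4413823 to 4414697), where a mock peak at 76.8, 72.5 and 79.999 did not come within 100 bp of the start and cover went from 368, 370 and 374 bp to 875, 863 and 837 bp. The formin gene capu was at 47.3, 13.9 and 37.2 in mock and 83.8, 73.9 and 84.8 in the knockdown, and 2 of the 4 regions around it were gained, including the AP-1 sequence printed above. CG31279 was at 2.61, 2.45 and 7.07 in mock and 96.6, 98.4 and 97.3 in the knockdown. Its region also holds tRNA:Thr-AGT-1-4 and stood at 99.3, 99.4 and 99.6 in mock, so in the knockdown the neighbouring tRNA peak reached the CG31279 start. Cyp12e1 spread widely in the knockdown, at 40.1, 88.2 and 80.1 against 30.1, 25.6 and 11.0. Within 1000 bp Cyp12e1 was at 78.0, 76.2 and 75.8 in mock and 76.5, 88.2 and 80.1 in the knockdown, so that the groups overlapped. The others of the set were wat and CG42329.

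**Figure D4:**
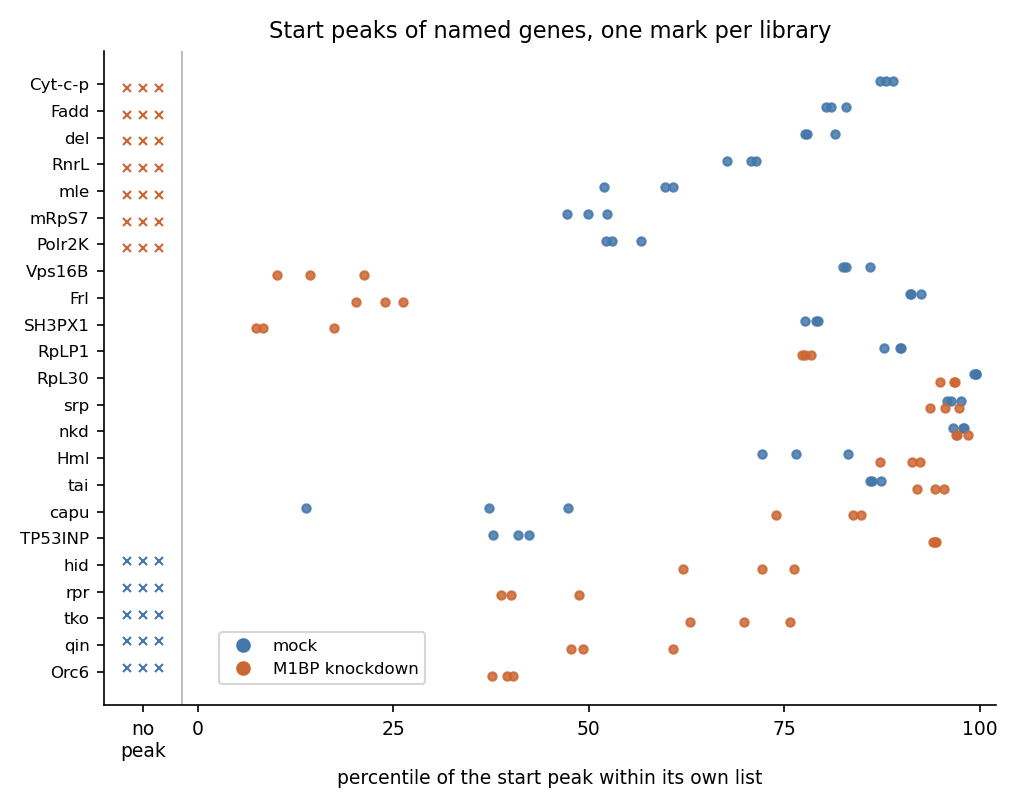
Percentile of the start peak among all peaks of its library (x axis, 0 to 100) for named genes (rows), 1 dot per library, mock in blue and M1BP knockdown in orange, with a cross at the left where a library had no peak. Cyt-c-p sits between 87.2 and 88.9 in mock and has no peak in the knockdown, and TP53INP goes from a mean of 40.3 to 94.2.

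Start peaks with different words moved differently. The core of Motif 1 lay within 100 bp of a start of 838 genes (4.71% of all genes), and 61 of the 737 open in mock lost the peak (8.28%). Of the 614 open in all 6 libraries, 328 fell in rank (53.4%) and 82 rose (13.4%). With the GAGA word, 99 of 528 fell (18.8%) and 245 rose (46.4%). With the DRE word, 32.7% fell and 23.8% rose, and 16 of 971 were lost (1.65%). With the AP-1 word 24.1% fell and 37.2% rose. At protein-coding genes open in all 6 libraries, cover from 150 to 1000 bp downstream went from 45.2% ± 0.706 to 33.2% ± 2.03, which is 73.4% of the mock level. With the Motif 1 core it went from 53.8% ± 0.770 to 38.5% ± 2.88, which is 71.5% of the mock level, and with the DRE word from 51.2% ± 0.892 to 37.2% ± 2.18 (72.7%). With the GAGA word it went from 38.2% ± 0.556 to 35.3% ± 0.489, which is 92.4% of the mock level. The Motif 1 and DRE classes thus stood near all open genes and the GAGA class above them, and these differences were not tested. In each of these word classes every knockdown library was below every mock library.

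The cytosolic ribosomal protein genes fell together. Of 87 genes 68 had a start peak in all 6 libraries, of which 44 fell in rank and 1, RpL34b, rose, with a median change of −9.55 against 0.0054 for all genes. By percentile 62 fell and 0 rose. RpS4 was at percentiles 91.4, 88.2 and 88.0 in mock and 64.2, 65.5 and 62.8 in the knockdown, and RpS3A at 92.3, 93.9 and 95.1 against 69.7, 75.5 and 75.8. None of the 87 lost its start peak. RpLP1, whose Motif 1 core is printed above, was at 89.8, 89.9 and 87.8 in mock and 77.7, 78.4 and 77.2 in the knockdown. The Motif 1 core word lay within 100 bp of a start in 9 of the 87, against 838 of all 17796 genes (4.71%). The search took the exact word, so variants of the motif were not counted.

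Other lists of genes used in every cell moved less evenly. Over all genes open in all 6 libraries 30.3% fell in rank and 30.1% rose. Of 46 oxidative phosphorylation genes 19 fell in rank and 9 rose. ND-B15, a complex I subunit, was at percentiles 80.8, 73.6 and 80.3 in mock and 18.8, 45.6 and 43.3 in the knockdown, whereas blw, the α subunit of ATP synthase, was at 76.9, 77.8 and 78.2 and at 85.7, 82.7 and 84.0. Of 26 proteasome genes 11 fell and 3 rose, and of 39 translation factor genes 17 fell and 9 rose. The 48 mitochondrial ribosomal protein genes were even, with 14 in each direction. Their cover downstream of the start, however, went from 50.1% ± 1.20 to 29.7% ± 2.18, and that of the 23 DNA replication genes from 48.1% ± 1.503 to 27.3% ± 4.36.

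Promoter-binding factor genes fell in rank in 9 of 18 cases (50%) and rose in 4 (22.2%), against 30.3% and 30.1% of all genes. MBD-R2, a subunit of the NSL complex, was at 89.3, 93.1 and 93.2 in mock and 43.5, 63.7 and 51.1 in the knockdown. Clamp, whose protein binds GA repeats, was at 89.4, 89.8 and 92.1 against 65.1, 73.8 and 69.1. In contrast nsl1, of the same NSL complex, was at 89.2, 85.5 and 86.8 against 95.7, 94.8 and 95.7. Among 13 insulator protein genes 4 fell and 4 rose (30.8% each), which is near the shares of all genes. BEAF-32 was at 90.1, 89.6 and 87.4 against 69.1, 79.0 and 74.0, and su(Hw) at 73.2, 75.1 and 75.2 against 88.9, 84.4 and 87.4. The start of Cp190 was at 83.7, 83.7 and 83.2 in mock and 67.2, 79.5 and 75.9 in the knockdown.

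Several lists of metabolic and stress genes rose in rank more often than they fell. Over all genes open in all 6 libraries 30.1% rose and 30.3% fell in rank. By percentile 13% rose and 55.3% fell. Of the 12 glycolysis genes, all open, 8 rose and 1 fell, with 6 and 3 by percentile. Tpi, triose phosphate isomerase, was at percentiles 81.0, 81.2 and 78.3 in mock and 91.9, 91.0 and 90.9 in the knockdown, and Eno, enolase, at 64.9, 50.8 and 49.3 against 75.9, 70.4 and 72.0. Gapdh1 was the exception, at 84.9, 85.5 and 83.4 against 50.4, 62.1 and 53.9. Of 14 V-ATPase genes, which encode the proton pump of lysosomes, 7 rose in rank and 0 fell, but by percentile 2 rose and 4 fell. Of 18 open cytochrome P450 genes 11 rose and 2 fell, with 7 and 5 by percentile. Cyp6v1 was at 86.3, 83.1 and 84.8 in mock and 98.6, 94.8 and 97.8 in the knockdown.

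The JNK and AP-1 list rose in rank in 8 of 18 cases (44.4%) and fell in 1 (5.56%). Over all genes open in all 6 libraries these shares were 30.1% and 30.3%. By percentile 5 rose and 4 fell, against 13% and 55.3% over all. Ets21C, an ETS factor gene induced by JNK, was at 85.1, 81.1 and 79.8 in mock and 94.6, 95.6 and 96.3 in the knockdown. Traf4, an adaptor upstream of JNK, was at 88.9, 87.8 and 83.7 against 99.0, 98.9 and 98.7, and Mmp1, a matrix metalloproteinase gene, at 84.4, 85.0 and 88.0 against 92.6, 94.4 and 95.3. The kinase gene msn went the other way, at 93.9, 92.97 and 93.5 against 85.6, 82.4 and 87.2. Of 16 Toll and Imd genes 9 rose (56.25%) and 4 fell (25%), with 8 and 6 by percentile. Rel, the NF-κB factor of the Imd pathway, was at 56.0, 58.4 and 60.8 against 70.1, 72.1 and 75.9, and Dredd, its caspase, at 85.2, 82.2 and 83.9 against 96.1, 93.6 and 93.7. The Toll pathway genes tub and pll were lower in the knockdown, tub at 76.7, 75.7 and 76.3 against 52.6, 58.4 and 52.8.

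Signalling lists were mixed, where 30.1% of all genes open in all 6 libraries rose in rank and 30.3% fell. Of 15 open ecdysone response genes 8 rose and 4 fell in rank. The gene br, an early ecdysone factor, was at percentiles 67.4, 54.2 and 64.2 in mock and 84.1, 69.7 and 76.9 in the knockdown, and Eip74EF, an ETS factor of the same response, at 88.3, 84.6 and 90.7 against 61.7, 72.8 and 72.8. Of 10 BMP genes 6 rose and 1 fell, the exception being the Smad gene Med at 77.7, 70.4 and 75.8 against 54.8, 42.2 and 49.2. In the EGFR and Ras list, downstream cover was higher in the knockdown, 34.1% ± 1.06 in mock and 42.0% ± 2.93, against the fall over all genes. The 3 chemoreceptor genes open in all 6 libraries, of 186, are too few to describe a list.

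**Figure D5:**
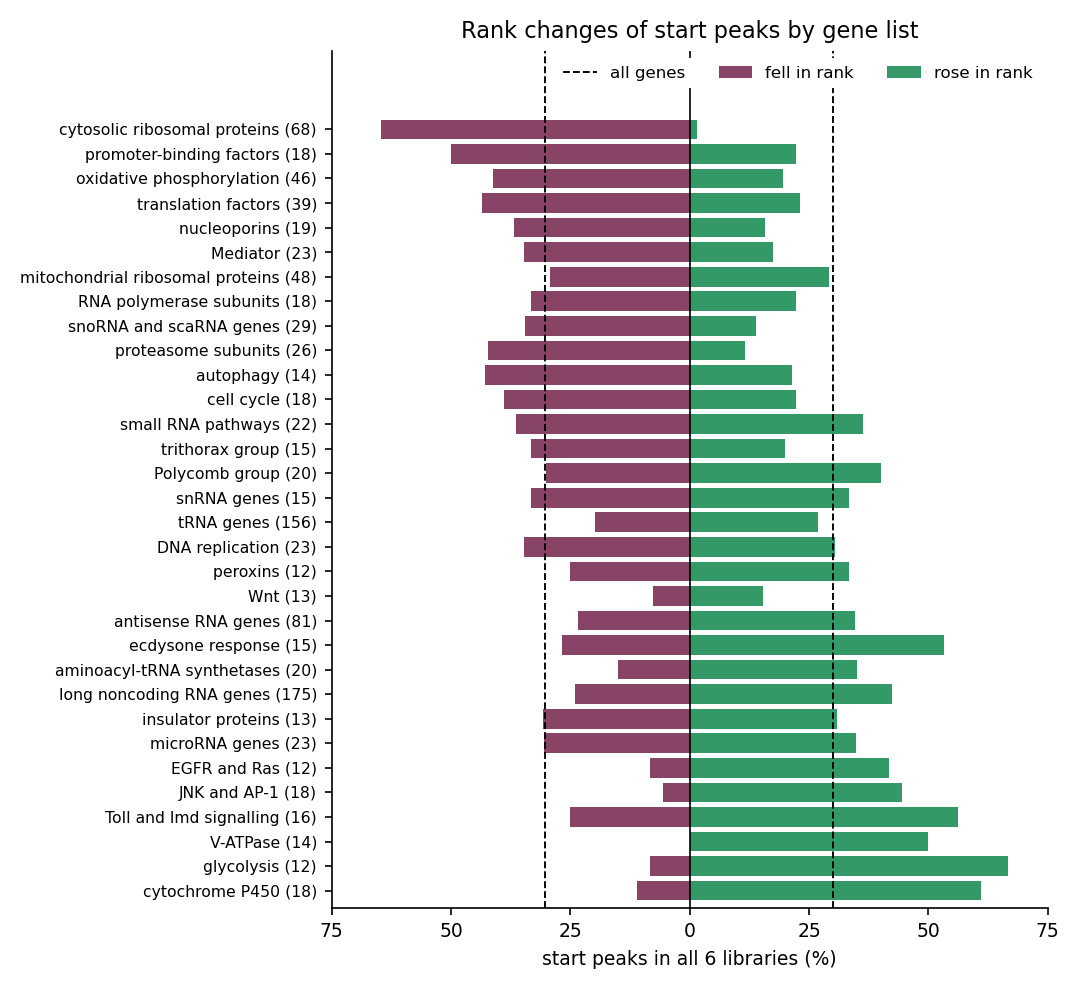
Percent of the genes open in all 6 libraries whose start peak fell (bars to the left) or rose (bars to the right) in rank among shared start peaks, by gene list, with broken lines for all genes and the number of genes in parentheses. All genes stand at 30.3% and 30.1%, cytosolic ribosomal protein genes at 64.7% and 1.47%, and glycolysis genes at 8.33% and 66.7%.

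Genes for noncoding RNA showed both directions. Of the 162 tRNA genes open in mock 1 lost the start peak, and 4 tRNA genes gained one. Among 156 open in all 6 libraries 31 fell in rank (19.9%) and 42 rose (26.9%), against 30.3% and 30.1% of all genes. The strongest gain was tRNA:Asn-GTT-1-2 at 89.5, 92.1 and 90.5 in the knockdown, but its region was retained and the mock libraries had a peak within 1000 bp at 94.1, 94.2 and 95.0. Copies of a tRNA gene are near identical, so unique reads may not place them all. Of 33 microRNA genes open in mock 6 lost the start peak (18.2%, against 4.91% of all genes open in mock), including mir-12 at 48.4, 45.0 and 38.6, and 2 gained one. Of 209 long noncoding RNA genes open in mock 13 lost the start peak (6.22%), and 13 of the list of 1945 gained one. The strongest lost was lncRNA:CR45565 at 97.8, 96.8 and 97.9 in mock. Its region was retained, and within 1000 bp of the start the knockdown libraries had a peak at 99.1, 98.9 and 99.1. None of 96 5S rRNA genes and none of 111 replication-dependent histone genes had a start peak in all 3 mock libraries, nor in all 6. These genes too are present in many copies, so the limit given for tRNA genes may apply. A missing peak there does not show closed DNA.

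Most genes with a changed region in the body held 1. At least 1 lost region lay in the body of 1463 genes (8.22%) and at least 1 gained region in 418 (2.35%). At least 2 lost regions lay in 247 genes and at least 2 gained regions in 60, and long genes have more regions to change. The genes with the most changed regions are described next. The gene l(3)80Fj, close to the centromere of 3L, held 7 lost and 0 gained regions. Of these, 6 neighbours formed the longest run of lost regions, 12.0 kb from 27990099 to 28002115. They stood between 8.21 and 55.0 in mock, and all had a peak in 3 Cp190 knockdown libraries. Its start peak was kept, at 99.2, 98.8 and 99.0 in mock and 88.7, 86.3 and 90.9 in the knockdown.

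Eip75B, an ecdysone-induced nuclear receptor gene, had 6 lost and 1 gained region among 34, and ct, the homeobox gene cut, 7 lost and 2 gained among 22. In ct the lost regions were in introns and coding exons, while the start peak was at 96.0, 94.9 and 96.2 in mock and 97.7, 97.4 and 98.1 in the knockdown. Dbp80, a DEAD-box helicase gene of 143 kb, lost 6 and gained 0, CG42346 lost 5 and gained 0, and cno, the gene of the junction protein Canoe, lost 5 and gained 2. The start peak of Eip75B rose like that of ct, from 91.9, 89.5 and 89.2 to 94.3, 93.7 and 94.0.

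Myo81F, a myosin gene of 1966 kb in the heterochromatin next to the centromere of 3R, had 15 gained and 0 lost regions. Apart from the region of 2085 bp named above, these stood between 0.349 and 49.9 in the knockdown. In bab2, the gene of the BTB factor Bric a brac 2, 5 regions were gained and 0 lost, and 4 of them ran over 3.03 kb from 1150814 to 1153844. A retained intronic region of bab2 12712 bp from the start rose from 51.2, 31.2 and 39.8 to 90.3, 91.8 and 93.4, while its start peak was slightly lower, at 98.4, 97.0 and 97.8 against 93.9, 95.0 and 95.5. The adhesion gene kirre had 5 lost and 5 gained regions, tai, a coactivator gene of the ecdysone receptor, 3 lost and 4 gained, and lncRNA:CR44999 5 lost and 4 gained.

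Along the arms, lost regions were 14.4% to 16.1% of the regions open in mock on 2L, 2R, 3L, 3R and X, and 5 of 107 (4.67%) on chromosome 4. In the tenth of each arm nearest the centromere 101 of 542 regions open in mock were lost (18.6%) and 44 of 430 open in the knockdown were gained (10.2%), against 15.2% and 6.96% in the rest of the arms.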

How the data were processed

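ATAC-seq peak lists of 3 mock, 3 M1BPKD and 3 Cp190KD Kc167 libraries were used. Per the study's methods, the authors trimmed paired 50 bp reads with cutadapt 1.8.1, aligned them to dm6 with Bowtie2 2.3.5, removed mitochondrial, duplicate, improperly paired and ambiguous reads with SAMtools 1.9 and Picard, and called peaks in each library by itself with MACS2 2.2.5 in paired-end mode at a q-value of 0.0001, with no control library. Whether reads were shifted for the transposase was not given in the sources used here.

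Each deposited list gives a score (not used further), the fold enrichment at the summit (a ratio), the −log10 p-value and −log10 q-value as the authors' peak caller wrote them, and the offset of the summit in bases. The lists hold no column of depth. The background level per base was recovered from fold enrichment and p-value at the summit, which gave whole fragment numbers for 100% of peaks in every library. For thinning, summit fragments and background were scaled to the lowest background, and peaks whose p-value then missed the library's weakest were dropped.

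Peaks overlapping by at least 1 bp were merged. Genes, exons and starts came from Ensembl release 115 and bases from the RefSeq dm6 assembly. Analyses used Python 3.11.15, numpy 2.4.6, pandas 2.3.3, scipy 1.17.1 and matplotlib 3.10.9, and the calls were tested on simulated peak lists. Single values were compared by exact permutation tests. Calls by presence or by non-overlapping groups carry no p-value, and the percent of all features called is given in their place.

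Alternatives were a −log10 q of at least 20, lists of equal length, 50% cover, a window of 1000 bp, the most upstream start, thinning, each library left out, and a replicate block. Thinning of downstream cover and the repeats of the upstream and downstream extension were chosen after seeing the data. Members, lists and tests were chosen with earlier results of these data known. Named were the strongest lost and gained regions by place, the start peaks and regions that changed most, the genes with most changed regions, and list members that lost or gained a start peak. Other list members, loci and sequences were chosen after their values were seen. One region that the rule named is not reported here.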

Additional observations from a re-analysis of the deposited data

Results flagged for a closer look

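Peaks on sequences not placed on a chromosome arm were more numerous after M1BP knockdown. They were part of the merged regions and the percentiles, but not of the comparisons by gene start, place or word. The knockdown replicates had 49, 38 and 76 such peaks, on 41, 35 and 61 sequences, and the mock replicates had 28, 20 and 31, on 22, 15 and 22 sequences. Every knockdown library was above every mock library although its whole list was shorter (exact permutation test, p = 0.1, n = 3, the smallest p possible), and the Cp190 knockdown libraries had 34 to 38. The sequences are rich in repeats, and the cause was not tested.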

How the results depend on the processing

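With peaks of −log10 q of at least 20 alone, 846 regions were lost, 2015 start peaks fell in percentile, 12 regions split and 69 fused, and the change in the number of peaks was −1 for the enc region and −0.667 for the RhoGAP100F region, opposite to the split called on all peaks. With lists limited to the same number of strongest peaks, 919 regions were lost and 1444 start peaks rose. Ranked among shared start peaks, 1870 fell and 1860 rose. The cause was not tested.

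Without each library in turn, genes that lost the start peak numbered 383 to 481 and gained 169 to 189, start peaks that fell 3567 to 3818 and rose 857 to 1015. Lost regions numbered 2334 to 2976, gained 863 to 1029, narrowed 3549 to 4013, widened 2312 to 2378, split 51 to 83 and fused 137 to 181. Fewer libraries make each rule easier to meet. Splits passed 1.5 times the count on all libraries without M1BPKD replicate 1 (83), 2 (78) or 3 (72). The difference in genes with a start peak ranged from −2.71 to −1.99 percentage points, downstream cover from −8.16 to −6.94 points, covered length from −69.7 to −57.3 bp and peaks per region from −0.0239 to −0.0125.

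In the fit with a replicate block (exact sign flips of same-numbered libraries, smallest p 0.25) the values were unchanged at −2.29, −7.53, −62 and −0.0199, with p = 0.25 for the first 3 and p = 0.5 for the last. Deviations of same-numbered libraries correlated at −0.0037, 0.054 and 0.023, so the numbers did not pair the libraries. After thinning to the lowest background 346 genes lost and 153 gained the start peak, and downstream cover fell by 7.46 points. Counts by presence depend on depth, and weak peaks limit them most.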
